A study of Homo sapiens with 12 samples.

Results

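The cytosolic ribosomal protein genes are the genes whose products, together with ribosomal RNA, form the large and small subunits of the ribosome that translates nuclear messages. They were taken as the protein-coding genes whose GENCODE 29 symbol is RPL or RPS with a number and at most a closing A, X or L, plus RPSA, RPLP0, RPLP1 and RPLP2. Of 81 such genes, 78 had at least 10 counts in at least 2 libraries, out of 58233 genes in the count table. They comprise 43 proteins of the large subunit, 32 of the small subunit and the 3 proteins of the stalk (RPLP0, RPLP1 and RPLP2). The paralogs RPL39L, RPL3L and RPL10L stayed below that rule, with at most 8, 8 and 1 counts in any library. Just inside it lay RPS10, with 13 to 33 counts per library, and RPL36A, with 21 to 74.

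The cells were MCF10-A, an immortalised line of human breast epithelium that is not derived from a tumour. Its 3 derivatives carry the labels Vector, B4-4 and Addback, and each was sequenced as 2 libraries under the treatment label NA and as 2 under EDTA, a chelator of divalent metal ions, which makes 6 groups and 12 libraries. All cells had been passaged in medium with 5% horse serum, then released with trypsin and kept for 3 h without serum on poly-HEMA coating, which keeps cells from attaching, so every group was matrix-detached. How the derivatives were made, whether each is 1 clone, what NA stands for and how much EDTA was used for how long is not given in the labels.

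Each ribosome carries a fixed set of these proteins, and their genes are therefore usually transcribed in balance. Most of their messages start at a C followed by a run of pyrimidines, the terminal oligopyrimidine (TOP) tract, through which the kinase complex mTORC1 and the RNA-binding protein LARP1 control their translation and stability. Growing epithelial cells spend a large part of their messenger RNA on them.

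The library totals ran from 15685376 to 22156173 counts, and the labels do not say that replicates came from separate cultures, so all p-values measure the spread between these libraries, which may be technical. The spread differed between pairs: the biological coefficient of variation of all genes was 24.2% between the B4-4 NA libraries and 18.8% between the Addback EDTA libraries, against 3.00% to 10.2% in the other pairs. All 10 epithelial markers passed the filter, summing to between 10358 and 15846 CPM (counts scaled to a common library total), whereas fibroblast markers (4 of 7 passing) summed to 14.3 to 67.1 CPM, immune markers (1 of 4) to 7.08 to 54.6 CPM and endothelial markers (1 of 3) to 3.35 to 34.3 CPM. The fibroblast sum was 14.3 to 15.4 CPM in Vector NA, 29.35 to 29.99 CPM in Vector EDTA, 17.0 to 29.9 CPM in B4-4 NA, 15.5 to 15.8 CPM in B4-4 EDTA, and higher in Addback (52.8 to 53.2 CPM under NA and 35.2 to 67.1 CPM under EDTA). The immune sum was 47.5 to 54.6 CPM in Addback NA, 8.64 to 35.2 CPM in Addback EDTA and 7.08 to 14.1 CPM elsewhere. CD3E of the immune list and CDH5 of the endothelial list were at 0 in every library. ITGB4, the integrin subunit beta 4 gene, stood at 1676 to 1848 CPM in the Vector libraries, 182 to 395 CPM in B4-4 and 1059 to 1524 CPM in Addback.

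The first transcribed bases are shown for the members with the largest fall in B4-4 against Vector under EDTA (RPS6, RPS18, RPL12, RPL13A). They are also shown for the laminin receptor gene RPSA and for members that behaved differently or lack the tract (RPL21, RPL17, RPS27L, RPS29, RPS26). RPS29, without a tract at its annotated start, had a log2 fold change of -0.79 in that comparison, close to RPL13A at -0.80. Each line gives 10 bases before and 20 bases from the annotated start in RefSeq's GRCh38.p14 promoter set, 5′ to 3′, with the TOP tract in capitals.
RPS6 (chr9:19380217-19380246, minus strand): gaagttggccCTCTTTTCCgtggcgcctcg
RPS18 (chr6:33272065-33272094, plus strand): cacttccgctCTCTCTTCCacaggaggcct
RPL12 (chr9:127451387-127451416, minus strand): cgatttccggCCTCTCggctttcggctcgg
RPL13A (chr19:49487598-49487627, plus strand): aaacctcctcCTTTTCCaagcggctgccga
RPSA (chr3:39406710-39406739, plus strand): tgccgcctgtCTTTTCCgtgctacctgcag
RPL21 (chr13:27251548-27251577, plus strand): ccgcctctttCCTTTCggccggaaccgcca
RPL17 (chr18:49492446-49492475, minus strand): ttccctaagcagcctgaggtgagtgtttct
RPS27L (chr15:63157458-63157487, minus strand): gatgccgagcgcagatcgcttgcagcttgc
RPS29 (chr14:49598691-49598720, minus strand): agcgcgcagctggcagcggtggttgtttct
RPS26 (chr12:56041908-56041937, plus strand): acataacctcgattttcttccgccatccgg
A tract was counted where the annotated first base was C and at least 4 pyrimidines followed it. Of the 63 members with an entry, 46 (73.0%) had one at an annotated start, with lengths from 5 to 19 bases and a median of 8, against 5.14% of all 27305 genes in that set. The ETS-type motif CCGGAAGT, searched on both strands of the 300 bases around each start, was present for 10 members (15.9%) and for 4.95% of all genes. Absence of these letters at an annotated start says only that they are not at that base.

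The 78 genes took up a smaller part of the transcriptome in B4-4 cells under EDTA than in any other group, and the largest part in Vector cells under EDTA. In the Vector NA libraries they held 7.30% and 7.45% of all counts, and in the Vector EDTA libraries 8.34% and 9.12%. The B4-4 NA libraries gave 7.24% and 8.07%, and the B4-4 EDTA libraries 5.46% and 5.38%. In Addback the shares were 7.17% and 7.88% under NA and 7.87% and 6.74% under EDTA. The group means were thus 7.37% ± 0.108 (SD, n = 2) and 8.73% ± 0.548 in Vector, 7.66% ± 0.585 and 5.42% ± 0.0579 in B4-4, and 7.52% ± 0.50 and 7.30% ± 0.803 in Addback, NA before EDTA. The exact binomial interval (Clopper-Pearson, 95%) of the share in the Vector NA 1 library was 7.29% to 7.31% and covers counting error only. In these bulk libraries, fewer cells of a type and less RNA per cell cannot be told apart, and a share or CPM is relative to all counted RNA.

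**Figure D1:**
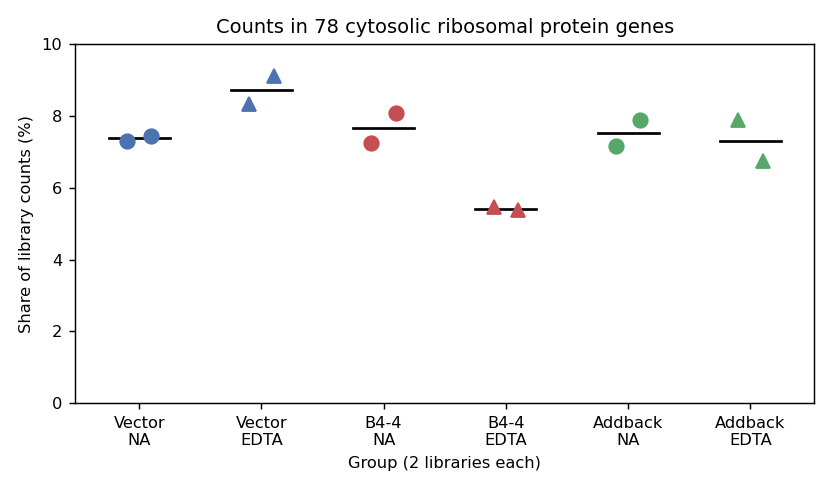
Share of each library's counts (%, vertical axis) that fell in the 78 cytosolic ribosomal protein genes, by group; each point is 1 library (circles NA, triangles EDTA) and each line the mean of 2. The B4-4 EDTA libraries, at 5.46% and 5.38%, lie below all others and the Vector EDTA libraries, at 8.34% and 9.12%, above all others.

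Gene by gene, the low end of this order held for most members and the high end for fewer. The B4-4 EDTA libraries were the lowest 2 of the 12 for 69 of the 78 members, against 10.8% of all genes tested. The 9 exceptions were RPL13, RPL17, RPL21, RPL26, RPL36A, RPL38, RPS10, RPS26 and RPS27L. The Vector EDTA libraries were the highest 2 for 29 members, against 7.94% of all genes. Vector EDTA 2 alone held the top value for 56 members, and the share of all genes with that pattern was not computed. Relative to its own mean over the 12 libraries, the median member stood at -0.38 (log2) in each B4-4 EDTA library and at 0.15 and 0.29 in the Vector EDTA libraries. It lay between -0.06 and 0.16 in the other 8 libraries, where the higher values came from B4-4 NA 2 (0.16), Addback EDTA 1 (0.12) and Addback NA 2 (0.11). Within a pair, the median member differed by 0.03 and 0.13 (log2) for Vector under NA and EDTA. That spread was 0.18 and 0.04 for B4-4, and 0.17 under either treatment for Addback.

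**Figure D2:**
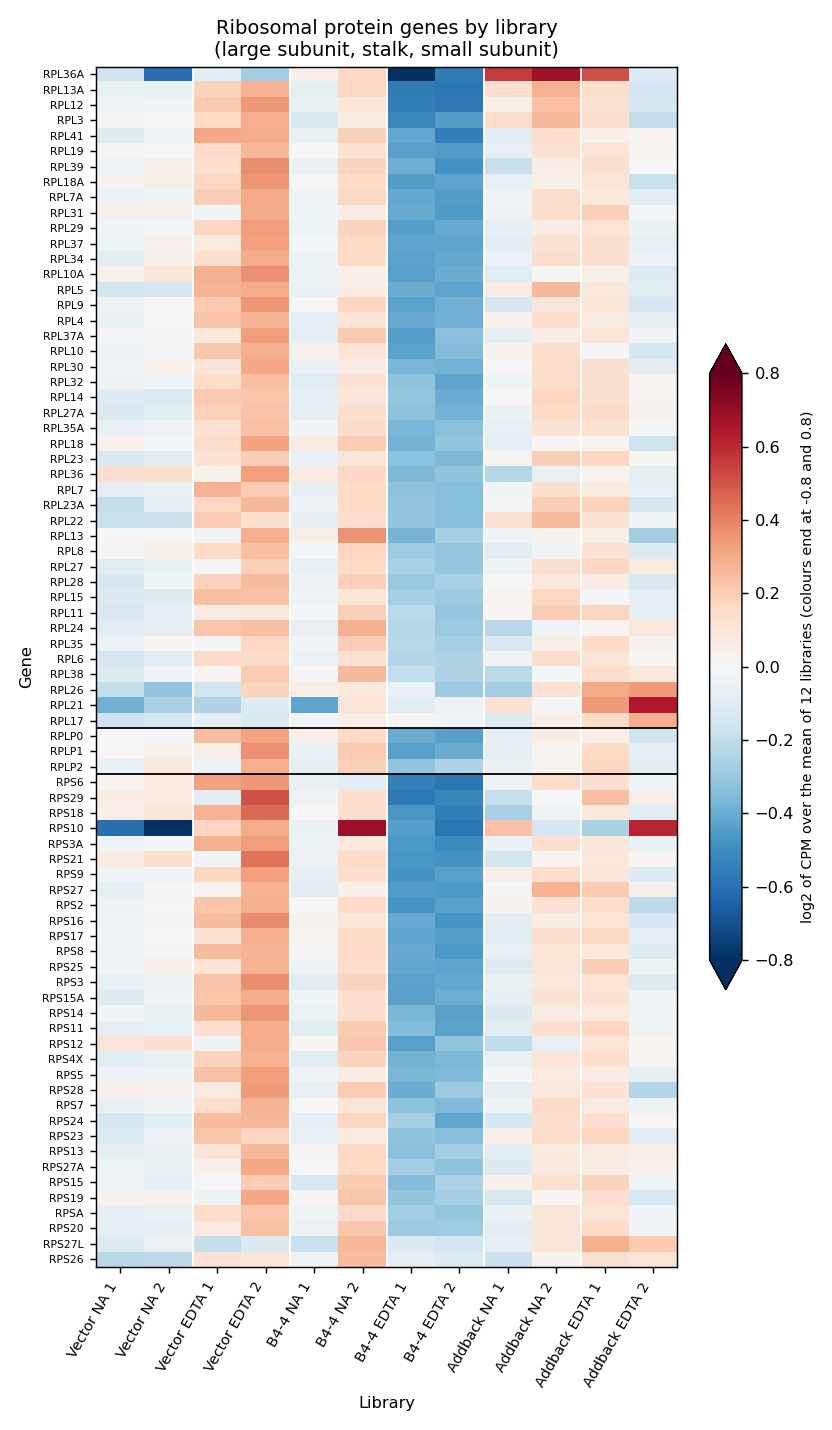
Log2 of each member's CPM over its mean of the 12 libraries (colour, blue below and red above), with genes as rows ordered within subunit by their level in the B4-4 EDTA libraries and libraries as columns. The B4-4 EDTA columns are blue for nearly every gene (median -0.38), and RPL21, RPL17, RPL26, RPS26 and RPS27L at the row blocks' lower ends are the palest there.

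Under EDTA, nearly all ribosomal protein messages were lower in B4-4 than in Vector cells. RPS6, the small-subunit protein phosphorylated by S6 kinase, fell most, followed by RPS18, which lies at the subunit interface, RPL12 at the base of the stalk, and RPL13A. In all, 71 of 78 members fell and none rose, against 20.4% of all genes called lower and 22.9% called higher. The median member changed by -0.60 (log2), a 1.51-fold lower level, and the median of all genes tested was 0.00. The summed markers of other cell types differed between these groups too: endothelial markers stood at 22.7 to 24.3 CPM in Vector EDTA and 3.35 to 3.51 CPM in B4-4 EDTA, fibroblast markers at 29.35 to 29.99 CPM and 15.5 to 15.8 CPM, and immune markers at 9.16 to 9.87 CPM and 7.08 to 8.03 CPM. Their part in the result was not tested. RPS6 stood at 4374 and 4437 CPM in Vector EDTA and at 2393 and 2335 CPM in B4-4 EDTA. Its log2 fold change was -0.90 ± 0.09 (SE), with an adjusted p of 1.77e-05 by edgeR's quasi-likelihood test. RPS18 measured 1559 and 1762 CPM in Vector EDTA and 933 and 878 CPM in B4-4 EDTA. The groups lay apart for both genes, and the log2 fold change of RPS18 was -0.87 ± 0.11 (adjusted p = 6.66e-05).

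RPL12 changed by -0.84 ± 0.11 (adjusted p = 8.82e-05), from 1582 and 1734 CPM to 937 and 921 CPM, and RPL13A by -0.80 ± 0.11 (adjusted p = 0.000183), from 2969 and 3184 CPM to 1783 and 1762 CPM. All 3 stalk proteins, which recruit the elongation factors to the ribosome, fell, with RPLP0 at -0.70 and RPLP2 at -0.41. By subunit, 39 of 43 large-subunit members fell (median -0.57) and 29 of 32 small-subunit members (median -0.61). RPL5 and RPL11 bind MDM2 when ribosome assembly is disturbed. RPL5 fell by 0.69 and RPL11 by 0.33 on the log2 scale. RPSA, also described as a laminin receptor, stood at 1690 and 1779 CPM in Vector EDTA and 1259 and 1230 CPM in B4-4 EDTA. That difference of -0.48 ± 0.09 (adjusted p = 0.00156) was smaller than the median member's.

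Every library of B4-4 EDTA was below both of Vector EDTA in 74 members, against 38.2% of all genes. The 7 members that did not pass the test were RPS27L, RPS26, RPL17, RPL21, RPL26, RPL36A and RPS10. RPS27L, a paralog of RPS27, stood at 45.5 and 48.1 CPM in Vector EDTA and 47.9 and 46.8 CPM in B4-4 EDTA, with overlapping groups. Its log2 difference was 0.02 ± 0.13 (adjusted p = 0.932), and its sign turned under other scalings. RPS27 itself stood at 639 and 763 CPM against 462 and 458 CPM and fell by 0.61. RPS26, at the exit of the messenger RNA channel, had 352 and 347 CPM against 308 and 301 CPM, a difference of -0.20 ± 0.10 (adjusted p = 0.142).

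The other 5 uncalled members averaged under 50 CPM, and the counting leaves their levels uncertain. RPS10 shares 39.4% of its exon bases on its strand with the read-through gene RPS10-NUDT3, and RPL17 shares 32.7% with RPL17-C18orf32. RPL26 shares 14.3% with AC135178.2 and RPL36A 8.40% with RPL36A-HNRNPH2, while 66 annotated pseudogenes carry the name of RPL21. Such overlaps and copies were not particular to these members. The well-counted RPS2 shares 25.6% of its exon bases on its strand, and 91 pseudogenes carry the name of RPL23A. Both RPS2 and RPL23A were called lower. RPL17 measured 19.4 and 18.8 CPM in Vector EDTA and 20.5 and 20.1 CPM in B4-4 EDTA, and RPL21 8.89 and 9.74 CPM against 9.82 and 10.2 CPM. Among the 73 members at 50 CPM or more, a grouping chosen after the data were seen, 71 fell. The count of fallen members in this comparison ran from 60 to 72 when each library was left out in turn.

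**Figure D3:**
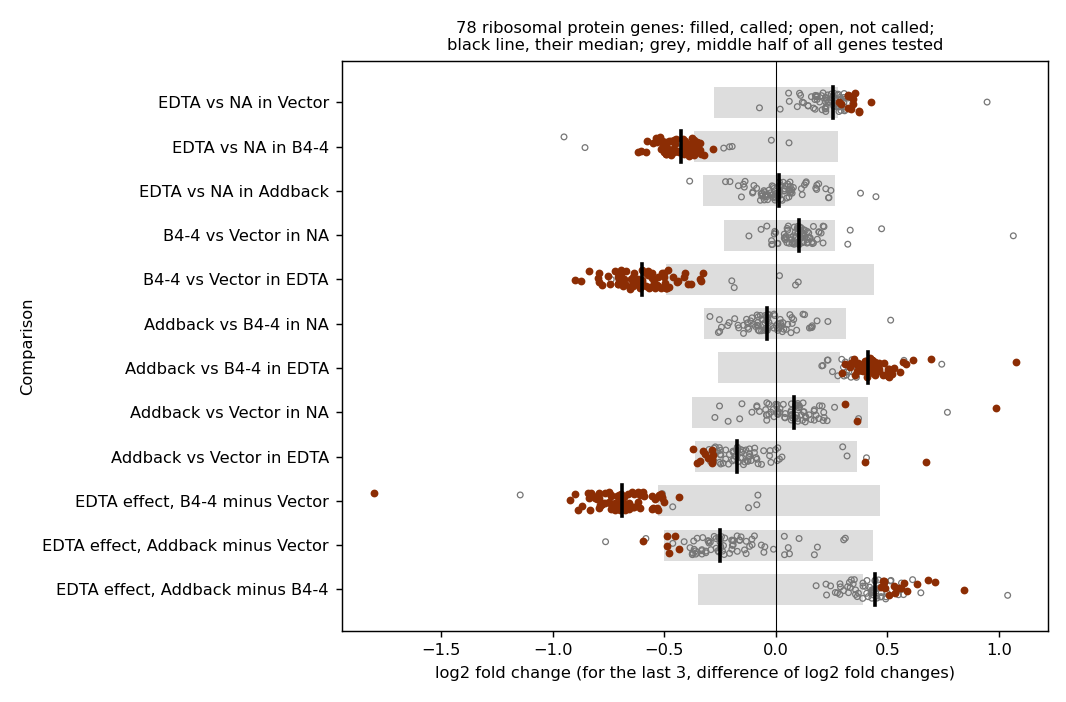
Log2 fold change (horizontal axis) of each of the 78 members in each of the 12 comparisons; filled points passed edgeR's quasi-likelihood test, open points did not, black lines are member medians and grey bars span the middle 50% of all genes tested. The members lie mostly left of 0 in B4-4 against Vector under EDTA (median -0.60) and right of 0 in Addback against B4-4 under EDTA (median 0.41).

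With EDTA most members fell in B4-4 cells, whereas in Vector cells the members that passed the test rose. In Vector cells 14 of 78 members rose with EDTA and none fell, with a median of 0.26 (log2), against 6.36% of all genes called higher and 8.98% called lower. In 67 members both EDTA libraries lay above both NA libraries, against 32.6% of all genes. Among the called members RPL5 rose most, from 1047 and 1056 CPM under NA to 1400 and 1424 CPM under EDTA. Its log2 fold change was 0.43 ± 0.10 (adjusted p = 0.0111, edgeR quasi-likelihood test). RPS10 had a larger value, 0.95, on 14 and 13 counts under NA and 29 and 33 under EDTA, and did not pass. RPL41, among the smallest ribosomal proteins, rose from 1362 and 1433 CPM to 1815 and 1804 CPM (log2 fold change 0.37). RPS24 and RPS3, the latter at the entry of the messenger RNA channel, rose by 0.37 and 0.36, and RPS6 by 0.29. RPS12 (0.02), RPL36 (0.06) and RPS27L (-0.07) were nearest to 0 or below it and did not pass the test. The 14 calls became 0 when any 1 of the 4 Vector libraries was left out, 3 without B4-4 EDTA 1 or without B4-4 EDTA 2, and 7 without Addback NA 1 or without Addback NA 2. They became 39 without B4-4 NA 1 or without B4-4 NA 2, 25 without Addback EDTA 1 or without Addback EDTA 2, and 52 when the Vector libraries were fitted alone, while the median stayed between 0.18 and 0.33 over the libraries left out.

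In B4-4 cells 69 of 78 members fell with EDTA and none rose, with a median of -0.42 (log2), a 1.34-fold lower level, against 1582 of 15749 genes tested (10%) called lower and 9.88% called higher. In 75 members both EDTA libraries lay below both NA libraries, against 29.3% of all genes. RPL13A had 2492 and 2953 CPM under NA and 1783 and 1762 CPM under EDTA, and fell by 0.62 ± 0.11 (adjusted p = 0.00366). RPS29, a zinc-binding protein of the small subunit's head, had 183 and 204 CPM under NA and 125 and 130 CPM under EDTA, and fell by 0.60 ± 0.16 (adjusted p = 0.0205). RPL12 and RPS18 each fell by 0.58. The members at 50 CPM or more that did not pass were RPS15 (-0.35, adjusted p = 0.0591), RPLP2 (-0.34, adjusted p = 0.0823), RPS26 (-0.21) and RPS27L (-0.20). RPS27L had 46.0 and 62.5 CPM under NA, the wide NA pair, and 47.9 and 46.8 CPM under EDTA. The 69 calls became 9 without B4-4 EDTA 1, 5 without B4-4 EDTA 2, 37 without B4-4 NA 2 and 0 when the B4-4 libraries were fitted alone. The median over the libraries left out stayed between -0.51 and -0.33.

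**Figure D4:**
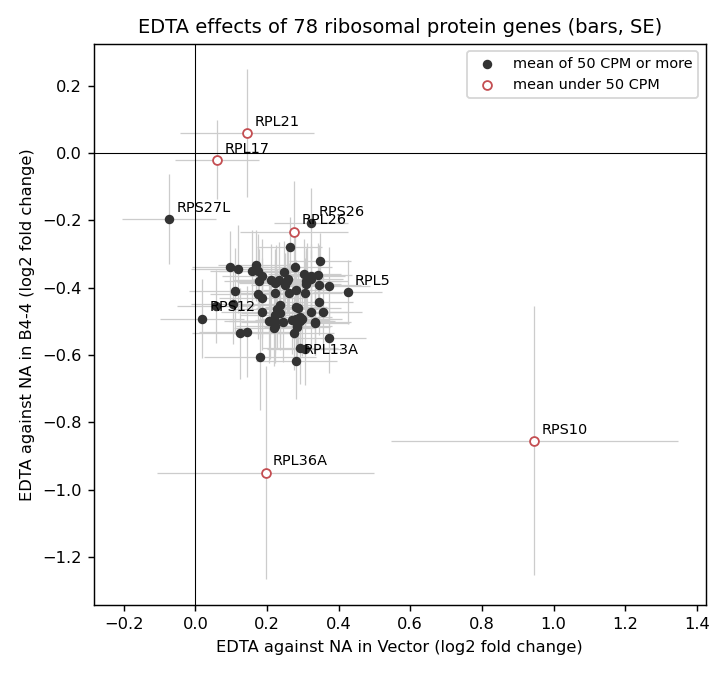
Log2 fold change of EDTA against NA in Vector (horizontal axis) and in B4-4 (vertical axis) for each of the 78 members, with SE bars; no library enters both axes, and red circles are members averaging under 50 CPM. Most points lie right of 0 and below 0 (medians 0.26 and -0.42), with RPL17 and RPL21 near 0 on both axes.

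The difference between these EDTA effects was tested directly as an interaction. It was negative for all 78 members and called for 72, against 12.6% of all genes called lower and 14.4% called higher, with a median of -0.69 (log2). RPL41 (-0.92 ± 0.15, adjusted p = 0.00104), RPL13A (-0.90 ± 0.16, adjusted p = 0.00182) and RPL12 (-0.89) gave the largest differences among the well-counted members. RPS10 gave -1.80 ± 0.57 (adjusted p = 0.0337) on 13 to 33 counts per library. The 6 uncalled members were RPLP2 (-0.46, adjusted p = 0.0822), RPS27L (-0.12, adjusted p = 0.664), RPL17 (-0.08), RPL21 (-0.09), RPL26 (-0.51) and RPL36A (-1.15). RPS26, uncalled within each derivative, passed here at -0.53 ± 0.15 (adjusted p = 0.0190). The count ran from 53 to 73 when each library was left out in turn.

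In Addback cells the members did not move together with EDTA. No member passed edgeR's quasi-likelihood test, against 8.64% of all genes called higher and 8.29% called lower. DESeq2 also called 0, and 2 members had an unadjusted p under 0.05, RPL21 (0.45) and RPL26 (0.38). The median was 0.01 (log2), with 42 members above 0 and 36 below, and the median of all genes tested was 0.01. RPS6 stood at 3380 and 3860 CPM under NA and 3826 and 3405 CPM under EDTA. For the median member, the EDTA libraries differed from each other about as much as the NA libraries did (0.17 in each pair, log2). Over all genes the biological coefficient of variation was 18.8% between the Addback EDTA libraries and 5.85% between the Addback NA libraries.

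The EDTA effect in Addback was above that in B4-4 for all 78 members, by a median of 0.44 (log2), and called for 16, against 4.22% of all genes called higher and 4.57% called lower. Among the called members RPS29 (0.84 ± 0.22, adjusted p = 0.0365), RPS18 (0.71), RPS12 (0.68) and RPL39 (0.63) differed most. This count became 0 without B4-4 EDTA 1, without B4-4 EDTA 2 or without Addback NA 1, 1 without Vector NA 1, without Vector NA 2 or without Addback EDTA 1, and 5 without Addback NA 2. It became 55 without B4-4 NA 1 and 29 without Addback EDTA 2. Against Vector, the effect in Addback was lower by a median of 0.25, and 6 members (7.69%) were called, all lower. That share is smaller than the background, where 10.8% of all genes were called lower and 13.4% higher. The 6 belong to the large subunit, but its median (-0.249) lay near that of the small subunit (-0.241). The called members were RPL5 (-0.59), RPL15 (-0.49), RPL13A (-0.49), RPL22 (-0.48), RPL12 (-0.45) and RPL10 (-0.43). This count became 1 without Vector NA 1, without Vector NA 2 or without Addback NA 2, 2 without Addback EDTA 2, and 3 with either Vector EDTA library left out. It became 18 without Addback EDTA 1 and 20 with either B4-4 NA library left out. These 3 contrasts of EDTA effects share libraries with each other and with the comparisons between derivatives, so their values stand side by side and are not independent.

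Under EDTA the median member of Addback lay between those of the other derivatives. Against B4-4, 57 of 78 members rose and none fell, with a median of 0.41 (log2), against 6.54% of all genes called higher and 7.54% called lower. In 77 members both Addback libraries lay above both B4-4 libraries, against 4719 of 15749 genes tested (30%). RPS29 stood at 220 and 193 CPM in Addback EDTA and at 125 and 130 CPM in B4-4 EDTA, and rose by 0.70 ± 0.16 (adjusted p = 0.0127). RPS6, at 3826 and 3405 CPM against 2393 and 2335 CPM, rose by 0.61 ± 0.09 (adjusted p = 0.00102), and RPS27, at 728 and 649 CPM against 462 and 458 CPM, rose by 0.58. RPL36A rose by 1.08 ± 0.31 (adjusted p = 0.0392) on 61 and 41 counts against 21 and 32. Of the stalk proteins RPLP0 (0.36) and RPLP1 (0.46) rose, and RPLP2 (0.33) did not pass. The 57 calls became 4 without B4-4 EDTA 1, 1 without B4-4 EDTA 2 and 5 without Addback EDTA 1, with medians of 0.34 to 0.48 over all libraries left out.

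Against Vector under EDTA, 12 members fell and 2 rose in Addback, with a median of -0.17, against 14.0% of all genes called lower and 16.1% called higher. The share of members called lower (15.4%) lies near the background, and the share called higher (2.56%) lies below it. The lower ones included RPS18 (-0.37 ± 0.11, adjusted p = 0.0208), RPL10A (-0.35), RPLP0 (-0.34) and RPL10 (-0.33), a late-joining protein of the large subunit. RPL21 rose by 0.67 ± 0.18 (adjusted p = 0.0160), and RPS27L by 0.40 ± 0.13 (adjusted p = 0.0370), from 45.5 and 48.1 CPM to 63.4 and 60.2 CPM. In 46 members both Addback libraries lay below both Vector libraries, against 31.5% of all genes. The 14 calls became 1, a higher one, without Vector EDTA 2, 0 without Addback EDTA 2, and 5 without Vector NA 1, without Vector NA 2, without B4-4 EDTA 1 or without B4-4 EDTA 2. They became 27 without B4-4 NA 1, 28 without B4-4 NA 2, 25 without Addback EDTA 1 and 9 without Vector EDTA 1.

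**Figure D5:**
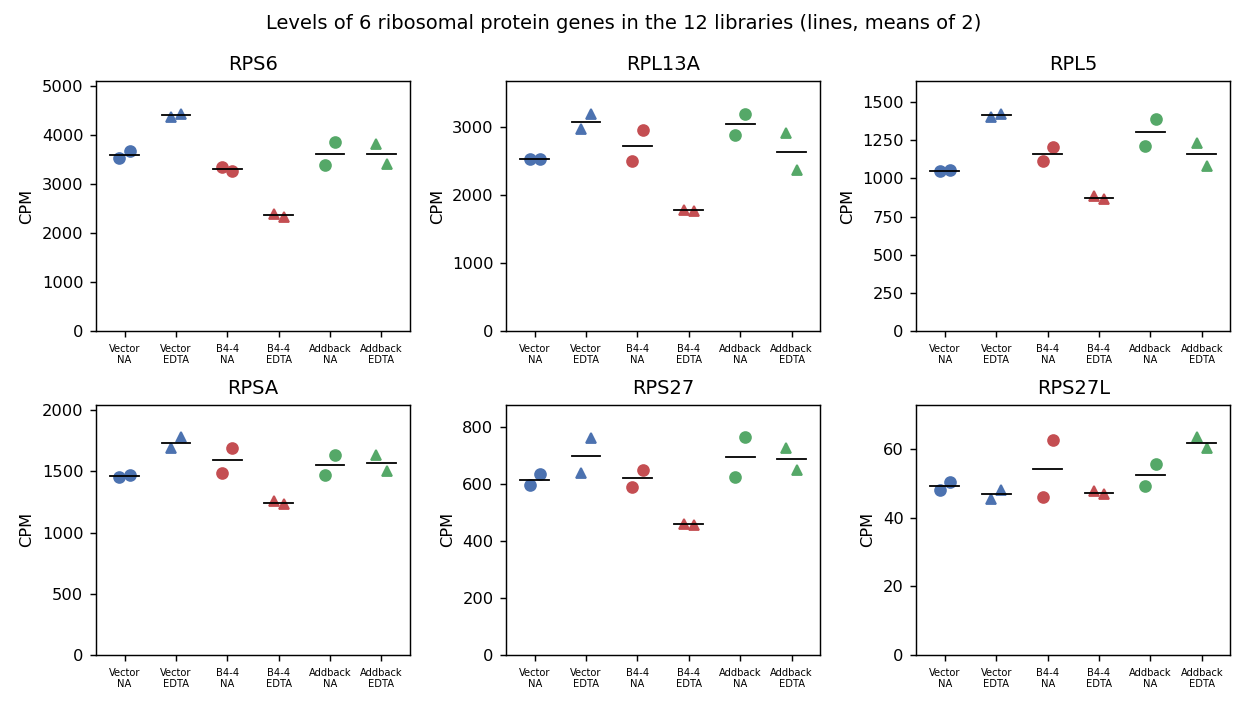
CPM (vertical axes, from 0) of 6 members in the 12 libraries, by group (circles NA, triangles EDTA, lines means of 2). RPS6, RPL13A, RPL5, RPSA and RPS27 are lowest in the B4-4 EDTA libraries, and RPS27L, at 47.9 and 46.8 CPM there, is not.

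Under NA few members passed the test between derivatives. Between B4-4 and Vector no member passed, with a median of 0.10 (log2), against 3.38% of all genes called higher and 3.78% called lower. edgeR's quasi-likelihood test gave 3 members an unadjusted p under 0.05 (RPS26 at 0.33, RPL22 at 0.21 and RPS10 at 1.06), DESeq2 called 1, and 6 were called without B4-4 NA 1. Between Addback and B4-4 no member passed either, with a median of -0.04, against 11.3% of all genes called higher and 12.3% called lower. RPL36 (-0.26) and RPL38 (-0.25) had an unadjusted p under 0.05, DESeq2 called 0, and 3 were called without B4-4 NA 1.

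Between Addback and Vector under NA 3 members rose, with a median of 0.08, against 17.9% of all genes called higher and 18.1% called lower, a smaller share than the background. RPL22, which has the near paralog RPL22L1, had 653 and 716 CPM in Addback NA and 531 and 534 CPM in Vector NA, a rise of 0.36 ± 0.10 (adjusted p = 0.0119). RPL5 had 1215 and 1389 CPM against 1047 and 1056 CPM, a rise of 0.31 ± 0.10 (adjusted p = 0.0250). RPL36A rose by 0.99 ± 0.30 (adjusted p = 0.0213) on 66 and 74 counts against 40 and 32. The count became 0 without Vector NA 2 or without Addback NA 2, 1 without Vector NA 1, 7 without B4-4 NA 1, 6 without B4-4 NA 2, and 28 when those groups were fitted alone.

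Levels among members were compared per kilobase of the shortest principal transcript, in mean CPM per kb over the 12 libraries. RPL41 (3125), RPS2 (2932), RPS6 (2513), RPL8 (2275) and RPL13A (2226) were highest, and RPS10 (1.85), RPL36A (5.85), RPS27L (8.08), RPL21 (12.9), RPL17 (30.5) and RPL26 (65.0) lowest. The same 5 and 6 genes held those ends when the length was the union of all exons, although other ranks moved. The low values of RPS10, RPL36A, RPL21, RPL17 and RPL26 may not be their true levels, since their counting is uncertain as described above. RPS27L was divided by a principal transcript of 6434 bp, which lowers its value. The highest CPM of RPL36A was 3.69 times its lowest and that of RPS10 2.87 times. For each of the other members this ratio was at most 2.12.

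Most members fell both with and without a TOP tract at the annotated start. In B4-4 against Vector under EDTA the 46 members with a tract had a median of -0.60 and 42 of them fell. The 17 with an entry and no tract had a median of -0.56 and 14 of them fell, among them RPS29 (-0.79), and RPL17, RPS26 and RPS27L did not pass the test. RPL21, whose start carries the tract CCTTTC shown above, did not pass it either. The sets rest on the annotated first base alone. RPL19, counted as without a tract, has an annotated start at a T inside a run of pyrimidines. The sets therefore do not separate TOP messages from others, and the difference between them was not tested.

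Other genes of translation were described from lists chosen with earlier results of these data known. Over all genes tested, 22.9% were called higher and 20.4% lower in B4-4 against Vector under EDTA. The 17 other TOP messages, mainly elongation factors and eIF3 subunits, all fell in the comparison with the lowest members: 17 of 17 were called lower in B4-4 against Vector under EDTA, with a median of -0.56. EIF4B, an initiation factor that helps unwind messages, had 1221 and 1164 CPM in Vector EDTA and 539 and 554 CPM in B4-4 EDTA, and fell by 1.12 ± 0.09 (adjusted p = 4.62e-06, edgeR quasi-likelihood test). EEF1A1, which brings aminoacyl-tRNA to the ribosome, fell by 0.77, EIF3E by 0.90 and TPT1 by 0.75. With EDTA, 9 of the 17 rose in Vector (median 0.30), against 6.36% of all genes called higher. In B4-4 10 fell (median -0.33), against 10% of all genes called lower. In Addback 4 fell with EDTA (median -0.20), including EIF4B (-0.48), against 8.29% of all genes called lower. The ribosomal protein median there was 0.01.

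Most of the factors that assemble ribosomes and passed the test rose there. Of 57 biogenesis genes, 31 rose and 6 fell in B4-4 against Vector under EDTA, with a median of 0.40. NIP7, a ribosome assembly factor, stood at 48.8 and 46.1 CPM in Vector EDTA and 106 and 102 CPM in B4-4 EDTA, and rose by 1.13 ± 0.09 (adjusted p = 4.06e-06). TCOF1, which supports ribosomal RNA transcription, rose by 0.97 and RRP1B by 0.997, while the polymerase subunit gene POLR1D fell by 0.87. In Addback against Vector under EDTA, 34 rose and 5 fell (median 0.41), against 16.1% of all genes called higher and 14.0% called lower. The ribosomal protein median there was -0.17. Of 14 hosts of small nucleolar RNAs, 7 fell and 1 rose in B4-4 against Vector under EDTA, with GAS5, itself a TOP transcript, at -1.40 and SNHG8 at -1.41.

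Of 29 initiation factors, 9 rose, among them EIF4G1 (1.03), and 9 fell, among them EIF1 (-0.79), in that comparison, where 22.9% of all genes were called higher and 20.4% lower. These shares are 31.0% each for the initiation factors. Of 35 genes of the mTORC1 pathway, 6 (17.1%) rose and 11 (31.4%) fell, with PDCD4 at -1.45, SESN3 at -1.97, TSC1 at -0.78 and DEPTOR, an inhibitor of the kinase, at -3.65. LARP1, named for its role, rose by 0.63. Of 15 chaperones and surveillance genes of new ribosomal proteins, 6 (40%) rose, with HEATR3 at 1.05 and NAP1L4 at 0.56, and 4 (26.7%) fell, among them NACA at -0.71. The 6 ribosomal proteins and paralogs outside the naming rule gave 1 rise, RPL7L1 at 0.33, and no fall, with RPL22L1 at -0.22 (adjusted p = 0.128) and FAU, a fusion of a ubiquitin-like protein with a ribosomal protein, at -0.19 (adjusted p = 0.195).

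The 78 mitochondrial ribosomal protein genes tested build the ribosomes of mitochondria. In B4-4 against Vector under EDTA 17 (21.8%) fell and 9 rose (median -0.08), against 20.4% of all genes called lower. With EDTA in B4-4 10 (12.8%) fell and 1 rose (median -0.13), against 10% of all genes called lower. Both shares of falls lie near those of all genes. Of the 78 nuclear genes of the respiratory chain, 35 fell and none rose (median -0.30) in the first comparison, and 39 fell and none rose (median -0.34) in the second, with ATP5MC2 at -0.65 in the latter. Of 687 other protein-coding genes with a transcript under 1000 bp, a set chosen after the data were seen, 157 (22.9%) fell and 118 (17.2%) rose in the first comparison (median -0.09), where the share of falls lies near that of all genes. In the second, 110 (16.01%) fell and 17 (2.47%) rose (median -0.23), against 10% and 9.88% of all genes. Among 236 other genes as abundant as the members above their lower quartile, 64 fell and 74 rose (median 0.04), and 31 fell and 44 rose (median 0.06). The part of transcript length in the members' result was not tested.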

How the data were processed

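RNA from 12 libraries of MCF10-A derivatives (polyA-selected, stranded, 150 bp paired reads) was analysed from the counts per Ensembl gene that the authors deposited. Per the submitters' processing notes, TopHat2 2.1.1, SAMtools 1.4.1 and featureCounts 1.5.3 were used, with the builds GRCh38, hg19 and hg38 named without roles. The annotation release, strand setting and handling of multiply mapped reads are not stated in those notes or the labels. Levels of genes with overlapping partners or close copies are therefore uncertain, also for well-counted members such as RPS2 and RPL23A. GENCODE 29 gave symbols to 57895 of 58233 genes. The 37 mitochondrially encoded genes are listed at 0.

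Counts were fitted with edgeR 4.0.16 (R 4.3.3; filterByExpr, TMM factors, robust quasi-likelihood) with 6 group means over all 12 libraries, leaving 15749 genes, all 78 members among them. A gene was called where its p, adjusted over the 15749 genes by the Benjamini-Hochberg method, was under 0.05, and log2 fold changes carry SEs from that test. CPM used the TMM-scaled totals. The scripts were tested on simulated data. Replicate numbers occur in every group, and the labels do not say that they mark a shared batch.

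The members and lists were chosen with earlier results of these data known. Named genes were a followed set (RPSA, the stalk proteins, RPS6, RPS3, RPL5, RPL11, RPL22, RPL26, RPL10, RPL3, RPL39, RPS27, RPS4X, RPS27L). To these were added, per comparison, up to 4 called members per direction with the largest change and no overlap of libraries, the 3 largest unadjusted p where over 50% were called, members whose CPM varied over 3-fold, and up to 4 genes per list with the smallest p. Other members, named for not passing, for level or for values near 0, were chosen after their values were seen. Alternatives were RLE, upper-quartile or no scaling factors, TMM factors without the members, no filter, DESeq2 1.42.0, a replicate block, the compared groups alone and each library left out. Chosen after seeing the data were leaving out the B4-4 NA and Addback EDTA pairs together and counting only members of at least 50 CPM.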

Additional observations from a re-analysis of the deposited data

Results flagged for a closer look

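The EDTA effect differed between derivatives by a direct test (edgeR's quasi-likelihood test of the interaction, adjusted p under 0.05) for 72 members between B4-4 and Vector, 6 between Addback and Vector and 16 between Addback and B4-4. Of all genes tested, 12.6% were called lower in B4-4 minus Vector, 10.8% lower in Addback minus Vector and 4.22% higher in Addback minus B4-4. The 6 members called in Addback minus Vector are 7.69% of the 78, a smaller share than the background. Among the 72, the members that the naming rule gave for this contrast (log2 difference, B4-4 minus Vector) were RPSA (-0.60), RPLP0 (-0.80), RPLP1 (-0.70), RPS6 (-0.78), RPS3 (-0.83), RPL5 (-0.84), RPL11 (-0.53), RPL22 (-0.70), RPL10 (-0.74), RPL3 (-0.69), RPL39 (-0.75), RPS27 (-0.62), RPS4X (-0.72), RPS10 (-1.80), RPL41 (-0.92), RPL13A (-0.90) and RPL12 (-0.89), and RPS26 (-0.53) was added after its values were seen. RPS10 rests on 13 to 33 counts per library. The 6 with a lower effect in Addback than in Vector were RPL5 (-0.59), RPL22 (-0.48), RPL10 (-0.43), RPL15 (-0.49), RPL13A (-0.49) and RPL12 (-0.45). Among the 16 with a higher effect in Addback than in B4-4 were RPLP0 (0.47), RPS6 (0.48), RPL39 (0.63), RPS29 (0.84), RPS18 (0.71) and RPS12 (0.68). The groups of 2 libraries are too small for a check of single libraries that stand apart.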

How the results depend on the processing

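Of the counts of called members, 95 of 111 under alternatives other than leaving out a library stayed within 1.5 times the count reported. These include 12 counts over members of at least 50 CPM, which use the same fit without 5 members and so could hardly move. A count of 0 that stayed at 0 was also taken as unmoved. DESeq2 called 26 members for EDTA in Vector (reported 14) and 1 for B4-4 against Vector under NA (reported 0). Fitting the compared groups alone gave 52 for EDTA in Vector, 0 (edgeR's quasi-likelihood test) for EDTA in B4-4, 28 for Addback against Vector under NA, 3 for Addback against Vector under EDTA, 15 for the EDTA effect in Addback minus Vector and 4 for Addback minus B4-4. Library totals without factors gave 8 for EDTA in Vector and 22 for Addback against Vector under EDTA. Without the filter, 1 member was called for EDTA in Addback and 45 for the effect in Addback minus B4-4. Upper-quartile factors gave 10 for Addback minus Vector. Without the B4-4 NA and Addback EDTA pairs, chosen after seeing the data, 55 were called for EDTA in Vector and 17 for Addback against Vector under NA. Deviations of same-numbered libraries correlated at -0.0854 to 0.128 over 15 pairs of groups, so the numbers were not taken to pair them. A replicate block gave 9 for EDTA in Vector and moved no other count past 1.5 times.

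Leaving out each library in turn gave counts of 0 to 39 for EDTA in Vector, 5 to 73 for EDTA in B4-4, 0 to 1 for EDTA in Addback, 0 to 6 for B4-4 against Vector under NA, 0 to 3 for Addback against B4-4 under NA, 1 to 71 for Addback against B4-4 under EDTA, 0 to 7 for Addback against Vector under NA, and 0 to 28 for Addback against Vector under EDTA (where the 1 call without Vector EDTA 2 was higher). The effects gave 1 to 20 for Addback minus Vector and 0 to 55 for Addback minus B4-4. A group left with 1 library was assumed to vary like the others. Over libraries left out, the member median changed sign for EDTA in Addback (-0.07 to 0.11), Addback against B4-4 under NA (-0.13 to 0.06) and Addback against Vector under NA (-0.02 to 0.16). Among 107 pairs of a named gene and a comparison, signs turned only for 3 members, in comparisons where they were not called. For RPS27L, B4-4 against Vector under EDTA turned to -0.00325 with RLE factors, -0.071 with upper-quartile factors, -0.041 without factors and -0.00325 with DESeq2, and ran from -0.049 to 0.062 over libraries left out. Its EDTA effect in B4-4 ran from -0.40 to 0.046 and the difference from Vector from -0.33 to 0.12. RPL21 under EDTA in B4-4 gave -0.015 with upper-quartile factors and -0.19 to 0.35 over libraries left out, and its difference from Vector -0.33 to 0.21. RPL17 under EDTA in B4-4 ran from -0.057 to 0.020. Calls held less well than signs. The 107 pairs include some named for a large unadjusted p, which had no call to lose. Of the others, 29 lost their call when the compared groups were fitted alone and 9 with a replicate block. At most 5 lost it under each other alternative that kept all libraries, and calls were also lost when libraries were left out. Causes were not tested. RPS10, on 13 to 33 counts per library, had an SE of 0.57 for its difference in EDTA effect.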
